A study of Mus musculus with 33 samples.

Results

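The 10 genes Dlx1, Dlx2, Dlx5, Dlx6, Alx1, Alx4, Msx1, Msx2, Prrx1 and Prrx2 are homeobox transcription factor genes of 4 families. They were selected by symbol, with earlier results of these data known, and all 10 were found among the 17120 genes of the deposited count table. Their RNA was measured in 33 cultures made from mouse embryonic stem cells (mESCs) that carry the ScxGFP tendon reporter, in 11 groups of 3 libraries. Cells were taken through embryoid bodies to paraxial mesoderm (PM) with the BMP receptor inhibitor LDN-193189 and the Wnt agonist CHIR, and PM was collected as embryoid bodies at day 6 (D6). The other 10 groups were monolayers of these cells cultured with TGFβ1, the hedgehog agonist SAG and FGF2, together with either CD1530, an agonist of retinoic acid receptor gamma, for tendon induction, or AGN 193109 (AGN), which acts on the same receptor class as an inverse agonist, for fibrocartilage induction. Each was collected at 5 time points, the earliest at D6.25 and the last at D10, with D6.75, D7.5 and D8.5 between them, and no group was cultured without a retinoid ligand after D6. The ligands were given at different concentrations, so a difference between CD1530 and AGN is a difference between complete media. For the PM stage the methods also name AGN or all-trans retinoic acid (ATRA), without saying which these libraries received. The paper reports that ATRA at this stage removed almost all ScxGFP induction and that AGN raised it. If PM was made with AGN, the AGN cultures kept their ligand after D6 and the CD1530 cultures changed theirs. A step from PM to D6.25 joins the new medium to the change from embryoid body to monolayer, and these cannot be told apart. In the methods, the libraries are called biological replicates and several ScxGFP lines are named for the study, without saying which line gave which library, and no cell sort is named before RNA extraction.

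A homeobox encodes a DNA-binding homeodomain whose recognition helix lies in the major groove. Dlx genes sit in the genome as convergently transcribed pairs and act in the branchial arches, in limb ectoderm, in interneurons of the ventral forebrain and in maturing cartilage and bone. Msx1 and Msx2 encode repressors that BMP signalling induces in limb and skull, Alx1 and Alx4 pattern the face and the anterior limb bud, and Prrx1 and Prrx2 mark limb and craniofacial mesenchyme.

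Family membership can be read in the stretch of the homeobox that encodes the recognition helix, which is shown for a gene of each Dlx pair, an Alx gene and a Prrx gene because the 4 Dlx genes had the largest fold differences between conditions at D10. Each line holds 60 bases of the coding strand, 5′ to 3′, from GRCm38 with GENCODE M21 coding exons, and the capitals mark the 18 bases of the helix on which the 10 genes were aligned. The coordinates of the 4 stretches include an intron that is not printed.
Dlx2, chr2:71544877-71545395, − strand: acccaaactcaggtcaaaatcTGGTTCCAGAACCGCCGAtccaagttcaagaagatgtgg
Dlx5, chr6:6878441-6879537, − strand: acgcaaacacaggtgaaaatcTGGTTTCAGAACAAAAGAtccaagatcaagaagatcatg
Alx4, chr2:93668648-93675337, + strand: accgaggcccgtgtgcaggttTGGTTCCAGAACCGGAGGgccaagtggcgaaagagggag
Prrx1, chr1:163257901-163261857, − strand: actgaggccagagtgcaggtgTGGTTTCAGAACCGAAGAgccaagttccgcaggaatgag
Over the 180 aligned homeobox bases, identity was between 71.1% and 82.2% in the 9 pairs of members of the same family and between 46.7% and 69.4% in the 36 pairs of different families. The longest run of identical bases in the transcripts of any pair was 47 bases, between Msx2 and Prrx1, and within families it was 23 bases, between Dlx2 and Dlx6.

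Dlx1 (chr2:71528113-71533981, + strand) and Dlx2 (chr2:71543408-71546754, − strand) lie 9426 bp apart, and Dlx6 (chr6:6863334-6868568, + strand) and Dlx5 (chr6:6877805-6882085, − strand) lie 9236 bp apart, in GRCm38. Alx4 (chr2:93642384-93681339, + strand) overlaps Ext2 on the opposite strand, Dlx1 overlaps the antisense gene Dlx1as, Dlx6 overlaps Dlx6os1 and Dlx6os2, and Alx1 and Prrx1 overlap predicted noncoding genes. Overlap was taken over whole genes with introns, and overlap of exons was not checked. The predicted gene at Alx1 and some of those at Prrx1 lie on the member's own strand. The strand setting of the authors' counting is not stated in the sources used here. Whether reads of opposite-strand genes entered the counts of these members is thus not known. The remaining members are Alx1 (chr10:102998707-103030215, − strand), Msx1 (chr5:37820485-37824583, − strand), Msx2 (chr13:53466884-53473074, − strand), Prrx1 (chr1:163245119-163313710, − strand) and Prrx2 (chr2:30834972-30881251, + strand).

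RefSeq promoters on GRCm38.p6, taken as the 250 bases before the start, were matched for 6 of the 10 members, and Dlx5, Dlx6, Alx1 and Alx4 were missing. Here 3 are shown because their genes followed 3 different courses: Dlx2 differed between conditions from D6.75 on, Msx1 fell from its PM level in both, and the conditions were called as different in Prrx1 at D10 only. Capitals mark the CCAAT box on either strand and the homeodomain core TAATTA, and the Prrx1 line holds the 190 bases of its window farthest from the RefSeq start, since the 60 bases nearest to it lie inside the GENCODE gene.
Dlx2, chr2:71546755-71547004, − strand: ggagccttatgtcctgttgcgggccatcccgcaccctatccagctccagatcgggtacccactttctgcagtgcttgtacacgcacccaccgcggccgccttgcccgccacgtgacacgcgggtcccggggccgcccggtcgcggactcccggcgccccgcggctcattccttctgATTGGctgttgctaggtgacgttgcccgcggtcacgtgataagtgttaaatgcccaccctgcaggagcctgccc
Msx1, chr5:37824586-37824835, − strand: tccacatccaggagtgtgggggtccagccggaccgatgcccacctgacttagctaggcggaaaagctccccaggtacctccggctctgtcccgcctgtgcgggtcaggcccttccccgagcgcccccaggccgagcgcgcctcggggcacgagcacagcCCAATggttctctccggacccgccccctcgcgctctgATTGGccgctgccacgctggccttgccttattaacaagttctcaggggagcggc
Prrx1, chr1:163313711-163313900, − strand: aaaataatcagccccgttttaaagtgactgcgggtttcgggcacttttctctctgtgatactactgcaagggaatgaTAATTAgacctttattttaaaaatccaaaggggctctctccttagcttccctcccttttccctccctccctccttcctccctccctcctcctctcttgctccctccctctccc
On both strands, CCAAT was found in the windows of Dlx2, Msx1 and Msx2, against 33.8% of 32851 windows, and TAATTA in those of Msx2 and Prrx1, against 4.84%. Of the retinoic acid receptor core motifs, AGGTCA was found in the window of Dlx1 only, against 14.0% of all windows, and AGTTCA in 0 of the 6, against 11.8%. The direct repeats of AGGTCA and of AGTTCA with 5 bases between the copies, which contain those motifs, were in 0 of the 6 and in 0.00913% and 0.0213% of all windows. TATAAA (12.4% of all windows) and the GLI site GACCACCCA (0.225%) were also in 0 of the 6. The median GC content was 67.2% in the 6 windows and 52.4% in all of them. The windows of Dlx1, Msx2 and Prrx2 lay wholly inside their GENCODE genes. Their RefSeq starts were 1332, 294 and 10395 bases from the GENCODE starts. Matches and GC content of these windows are thus those of sequence within annotated genes. All matches are descriptions of letters and not of bound sites.

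Library totals were 17116084 to 22775275 counts, and 38120841 counts in AGN D8.5 replicate 1. Pearson's r of log2(CPM + 1) over all genes was between 0.993 and 0.998 within groups, and 0 replicate columns were identical. PM held its markers Tbx6 (9.56 CPM), Msgn1 (3.38) and T (79.0), and the tendon regulator Scx had a PM level of 6.41 CPM and, at D10, reached 858 CPM with CD1530 and 1223 CPM with AGN. These and all levels are CPM (counts-per-million with edgeR's TMM scaling), given as mean ± SD of 3 libraries, and log2 fold changes with their standard error. P-values are from edgeR's quasi-likelihood F test, adjusted over all 17120 genes by the Benjamini-Hochberg method, and a gene was called below 0.05. A group in which every library had at most 3 counts of a gene is said to be at the counting floor. A count of 3 was on average 0.182 CPM in AGN at D10 and 0.149 CPM in PM. In bulk RNA, fewer cells that express a gene and less RNA per cell cannot be told apart, which applies to every difference below.

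The comparison of CD1530 with AGN at D10 asks how the genes differ at the end of tendon and fibrocartilage induction. In all, 7 of the 10 were called, all 7 lower in CD1530: Dlx1, Dlx2, Dlx5, Dlx6, Alx4, Prrx1 and Prrx2. In this comparison 46.6% of all genes were called, 24.0% as lower and 22.7% as higher in CD1530. The median log2 fold change of the 10 genes was −1.79 and that of all genes −0.02. These 10 genes and all lists below were chosen with earlier results of these data known. From modules of its RNA sequencing, the paper names Dlx5 and Alx4 as fibrocartilage-specific transcription factors. Such counts and medians thus describe the listed genes and do not test them as a set. Dlx6 reached the lowest third-highest CPM of any gene in the table, 0.611, only in the 3 AGN libraries of D10. It had to be high there to be in the table, so its values in comparisons with that group are descriptions, and its call and its place in counts and medians support nothing. The libraries of the conditions did not overlap for the 7 called genes, nor for Alx1 and Msx1, which lay higher in CD1530 and were not called. The share of all genes without overlap was not computed, so this only describes the single genes.

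**Figure D1:**
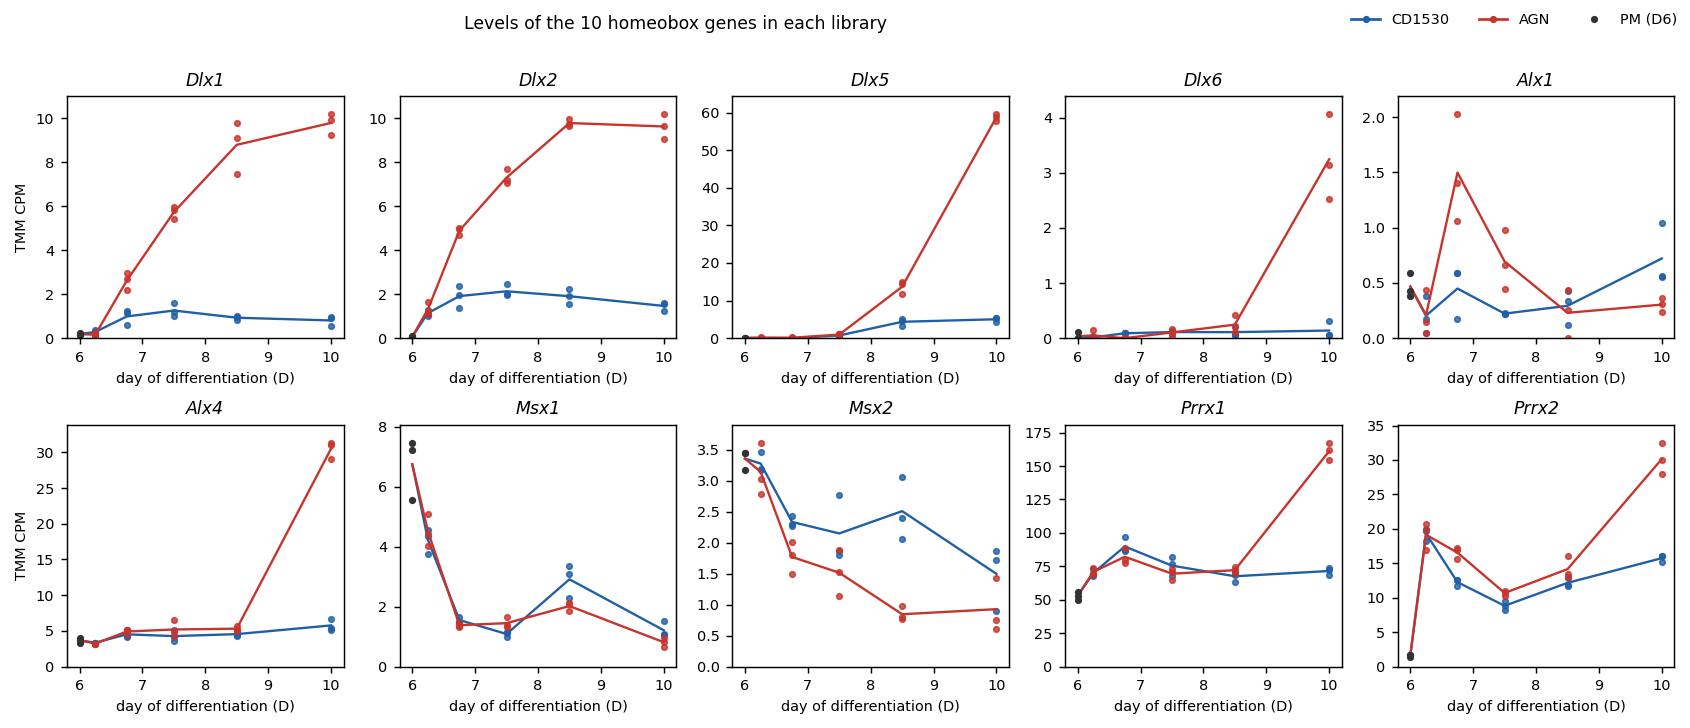
TMM CPM of each of the 10 genes by day of differentiation, with a point for each library and a line through the mean of 3 libraries (CD1530 blue, AGN red, PM black, each panel with its own linear axis from 0). At D10 the 3 AGN libraries lie above the 3 CD1530 libraries in the panels of all Dlx genes, Alx4, Prrx1 and Prrx2, and the Msx1 and Msx2 panels fall from their PM level.

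Dlx5, a factor of chondrocyte maturation and bone formation, had the largest level difference among the Dlx genes. Its libraries were at 5.40, 4.40 and 5.28 CPM in CD1530 and at 59.0, 59.6 and 57.9 CPM in AGN at D10. Every AGN library was more than 10 times as high as any CD1530 library. The log2 fold change was −3.54 ± 0.15, or 11.7-fold, with an adjusted p of 2.07e-21.

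Dlx6, the neighbour of Dlx5 on chromosome 6, was weakly counted. At D10 it had 6, 1 and 1 counts in the CD1530 libraries (0.303, 0.0550 and 0.0562 CPM) and 65, 42 and 53 counts in the AGN libraries (4.06, 2.53 and 3.15 CPM). Its D10 difference was −4.44 ± 0.45 on the log2 scale, given as a description, and AGN at D10 was the only group in which its mean passed 1 CPM.

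Dlx1 and Dlx2, best known from the ventral forebrain and the branchial arches, are transcribed towards each other. Dlx1 was at 0.909, 0.550 and 0.956 CPM in CD1530 and at 9.25, 10.2 and 9.92 CPM in AGN at D10. Dlx2 was at 1.62, 1.54 and 1.24 CPM in CD1530 and at 9.07, 10.2 and 9.62 CPM in AGN. Neither gene's conditions overlapped, and the differences were 12.0-fold for Dlx1 (log2 −3.59 ± 0.20, adjusted p = 7.09e-19) and 6.53-fold for Dlx2 (−2.71 ± 0.16, 3.04e-18).

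Alx4, a regulator of anterior limb and skull patterning, was at 6.67, 5.45 and 5.17 CPM in CD1530 and at 29.1, 31.1 and 31.4 CPM in AGN at D10. Its 3 AGN libraries lay above every other library of the series. The difference was 5.28-fold (log2 −2.40 ± 0.11, adjusted p = 5.98e-22). Alx1, which acts in facial mesenchyme, had only 4 to 19 counts per library at D10 and was not called (0.721 ± 0.281 CPM in CD1530, 0.304 ± 0.062 in AGN, log2 1.23 ± 0.58, adjusted p = 0.0809).

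Prrx1, which marks limb and craniofacial mesenchyme, was the member with the most counts in each group. It was at 71.9, 73.7 and 68.8 CPM in CD1530 and at 167, 162 and 154 CPM in AGN at D10, a 2.25-fold difference (log2 −1.17 ± 0.06, adjusted p = 2.82e-20). Prrx2 was at 16.1, 15.1 and 16.0 CPM in CD1530 and at 32.5, 29.9 and 28.0 CPM in AGN, a 1.91-fold difference (−0.94 ± 0.08, 5.21e-13). The differences of the Prrx genes were thus smaller in fold than those of the Dlx genes and Alx4.

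Msx1 and Msx2 lay on the other side and did not pass the test at D10. Msx1 was at 1.52, 1.05 and 1.07 CPM in CD1530 and at 0.938, 0.662 and 0.832 CPM in AGN (log2 0.59 ± 0.27, adjusted p = 0.0739). Msx2 was at 1.72, 1.87 and 0.899 CPM in CD1530 and at 0.750, 0.602 and 1.43 CPM in AGN (0.69 ± 0.29, 0.0514), and the conditions overlapped through the third library of each. Without AGN replicate 3 the Msx2 difference was called (1.15, adjusted p = 0.0058), as it was without CD1530 replicate 3 (0.94, 0.00847) or with scaling by library size only (0.73, 0.0396).

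The same comparison at the earlier time points asks when the conditions part. At D6.25, 0 of the 10 genes were called, with 0 at an unadjusted p under 0.05 and 0 by DESeq2, beside 1.92% of all genes (1.23% higher, 0.695% lower). At D6.75, 4 were lower in CD1530: Dlx1, Dlx2, Alx1 and Prrx2 (18.0% of all genes called, 10.0% as lower and 7.94% as higher). These 4 were also lower at D7.5 (26.9% of all genes called, 11.8% as lower and 15.2% as higher). At D8.5, Dlx1, Dlx2, Dlx5 and Prrx2 were lower and Msx1 and Msx2 higher in CD1530 (40.0% of all genes called, 19.6% as lower and 20.4% as higher). Alx4, Prrx1 and Dlx6 were called at D10 and at no earlier time point.

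**Figure D2:**
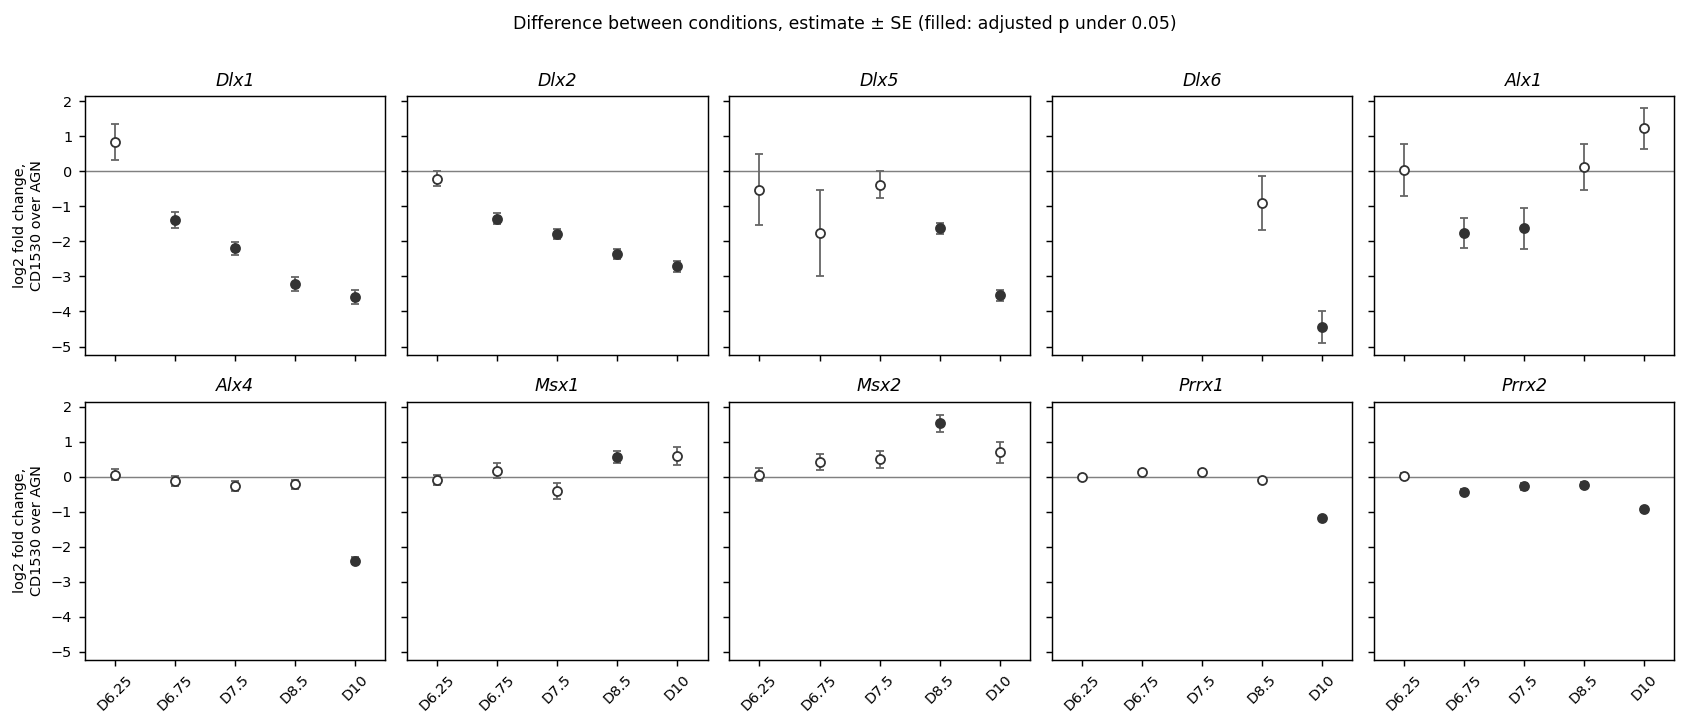
Log2 fold change of CD1530 over AGN (estimate ± SE from the fit of 33 libraries) for each gene at the 5 time points, on a shared axis, filled where the adjusted p was under 0.05. Time points at which both conditions were at the counting floor are left out (Dlx6 at D6.25, D6.75 and D7.5), and the filled points of Dlx1 and Dlx2 run from −1.39 and −1.35 at D6.75 to −3.59 and −2.71 at D10.

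Dlx1 and Dlx2 parted from D6.75 on. At D6.25 Dlx1 was at 0.198, 0.267 and 0.383 CPM in CD1530 and at 0.137, 0.0976 and 0.241 CPM in AGN, and these ranges overlap. At D6.75 it was at 0.585, 1.14 and 1.24 CPM in CD1530 and at 2.69, 2.19 and 2.96 CPM in AGN, with no overlap (log2 −1.39 ± 0.22, adjusted p = 4.42e-06). The difference was −2.20 ± 0.19 at D7.5 (1.47e-12) and −3.21 ± 0.19 at D8.5 (1.88e-17).

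Dlx2 also differed from D6.75 on, with smaller log2 differences than Dlx1. At D6.75 it was at 1.98, 1.36 and 2.39 CPM in CD1530 and at 5.02, 4.95 and 4.69 CPM in AGN (log2 −1.35 ± 0.15, adjusted p = 5.53e-09). Its differences were −1.79 ± 0.15 at D7.5 (3.72e-13) and −2.36 ± 0.15 at D8.5 (4.24e-17). In each of the D6.75, D7.5 and D8.5 comparisons all AGN libraries of Dlx1 and Dlx2 were above all CD1530 libraries.

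Dlx5 started later. It had at most 6 counts in any library at D6.25 and D6.75. At D7.5 it was at 0.327, 1.21 and 0.607 CPM in CD1530 and at 0.992, 1.16 and 0.691 CPM in AGN, which overlap (log2 −0.38 ± 0.38, adjusted p = 0.513). At D8.5 it was at 3.30, 5.11 and 4.66 CPM in CD1530 and at 11.7, 14.9 and 14.4 CPM in AGN, with no overlap (−1.63 ± 0.16, 2.31e-10). Dlx6 was at the floor or near it through D8.5, where it had 1, 4 and 1 counts in CD1530 and 4, 4 and 8 in AGN (−0.91 ± 0.77, 0.375).

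Alx1 was lower in CD1530 for a short time only. It was at 0.585, 0.591 and 0.171 CPM in CD1530 and at 2.03, 1.41 and 1.06 CPM in AGN at D6.75 (log2 −1.76 ± 0.42, adjusted p = 0.00209), on 4 to 46 counts. At D7.5 the difference was −1.63 ± 0.58 (0.0314), and the call was lost when AGN replicate 1 or 2 or any of the CD1530 replicates was left out (adjusted p up to 0.175). At D8.5 it was 0.13 ± 0.66 (0.906). The Alx4 differences before D10 were between −0.27 and 0.05 and were not called, except at D7.5 without CD1530 replicate 2 (−0.40, 0.0476).

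Prrx2 was lower in CD1530 by small amounts from D6.75 on. It was at 12.6, 11.7 and 12.5 CPM in CD1530 and at 15.6, 17.1 and 16.9 CPM in AGN at D6.75 (log2 −0.43 ± 0.08, adjusted p = 1.74e-04). The D7.5 difference (−0.27 ± 0.10, 0.0298) lost its call without AGN replicate 2 or 3 or CD1530 replicate 1 or 2 (adjusted p up to 0.122). The D8.5 difference (−0.24 ± 0.09, 0.0254) lost it without AGN replicate 1, the deepest library (−0.12, 0.356), without CD1530 replicate 1 or 2 (0.0946 and 0.0820) and with scaling by library size only (0.0541). Prrx1 differed by between −0.10 and 0.13 before D10 and was not called, and its D6.75 difference was called without AGN replicate 1 (0.19, 0.0389) and its D7.5 difference without CD1530 replicate 3 (0.19, 0.0209).

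Msx1 and Msx2 were higher in CD1530 at D8.5. Msx2 was at 2.07, 2.39 and 3.07 CPM in CD1530 and at 0.975, 0.764 and 0.794 CPM in AGN (log2 1.52 ± 0.25, adjusted p = 3.36e-06), with no overlap. Msx1 was at 3.07, 3.35 and 2.30 CPM in CD1530 and at 1.84, 2.09 and 2.12 CPM in AGN (0.55 ± 0.18, 0.0104), also with no overlap, and this call was lost without AGN replicate 1 or CD1530 replicate 2 (adjusted p up to 0.0879). At D6.75 and D7.5 neither was called.

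Whether the difference between conditions was constant over the 5 time points was tested for each gene with 4 degrees of freedom. It changed for all 10 genes, Dlx6 with the limit given above, beside 48.8% of all genes. The adjusted p was lowest for Prrx1 (5.30e-17) and Alx4 (3.14e-16) and highest for Msx1 (0.0152).

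The comparison of D10 with PM gives the whole course of each condition, and both conditions share the same 3 PM libraries. In CD1530, 6 genes were higher than in PM and 2 lower (83.2% of all genes called, 43.3% as higher and 39.9% as lower). In AGN, 7 were higher and 2 lower (82.0%, 41.6% and 40.4%). These are shares at which most genes differ, and the members' counts are read only with their sizes.

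PM was at the counting floor for Dlx2, Dlx5 and Dlx6, with at most 2 counts in a library. Against a floor of 3 counts per library, Dlx5 was at least 33.8-fold higher at D10 in CD1530 and at least 395-fold higher in AGN. Dlx2 was at least 9.83-fold higher in CD1530 and at least 64.6-fold higher in AGN. Dlx6 was at least 21.8-fold higher in AGN, and in CD1530 its mean stayed under the floor. Without PM replicate 3, which held the only 2 counts of Dlx6 in PM, the Dlx6 comparison in CD1530 was called (adjusted p = 0.0187).

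Dlx1 had 4, 3 and 4 counts in PM (0.183 ± 0.038 CPM). It rose by 2.12 ± 0.42 on the log2 scale in CD1530 (adjusted p = 1.52e-05) and by 5.71 ± 0.26 in AGN (6.17e-23). Alx4 was at 3.30, 3.68 and 4.04 CPM in PM and was higher by 0.66 ± 0.14 in CD1530 (4.50e-05) and by 3.06 ± 0.11 in AGN (8.50e-26). Alx1 was at 0.467 ± 0.111 CPM in PM and was called at D10 in neither condition (0.63 ± 0.50, 0.245 in CD1530 and −0.60 ± 0.62, 0.375 in AGN).

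Prrx1 was at 55.8, 52.9 and 49.9 CPM in PM, so it was well counted from the start. It was higher by 0.43 ± 0.06 in CD1530 (3.35e-08) and by 1.61 ± 0.06 in AGN (1.09e-25). Prrx2 was at 1.63, 1.75 and 1.45 CPM in PM and rose by 3.28 ± 0.13 in CD1530 (2.08e-25) and 4.22 ± 0.12 in AGN (1.71e-30). Per kilobase of exon, Prrx1 and Prrx2 were at 4.78 ± 0.27 and 0.821 ± 0.075 CPM per kb in PM and at 14.6 ± 0.60 and 15.4 ± 1.16 CPM per kb at D10 in AGN.

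Msx1 and Msx2 were the members that fell. Msx1 was at 7.23, 7.46 and 5.55 CPM in PM and fell by 2.47 ± 0.18 in CD1530 (adjusted p = 2.34e-16) and by 3.05 ± 0.20 in AGN (8.72e-18). Msx2 was at 3.45, 3.45 and 3.18 CPM in PM and fell by 1.16 ± 0.22 in CD1530 (1.12e-05) and by 1.85 ± 0.25 in AGN (1.58e-08). In both genes all PM libraries lay above all D10 libraries.

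The steps between neighbouring time points show when each gene moved. From PM to D6.25 the same 4 genes were called in both conditions, Dlx2, Prrx1 and Prrx2 as higher and Msx1 as lower (67.8% of all genes called in CD1530, 34.5% as higher and 33.3% as lower, and 68.1% in AGN, 35.0% and 33.1%). Prrx2 had the largest of these steps measured above the floor: from 1.61 ± 0.15 CPM in PM it rose to 19.3 ± 0.92 in CD1530 (log2 3.57 ± 0.12, adjusted p = 1.13e-26) and to 19.1 ± 1.9 in AGN (3.56 ± 0.12, 1.68e-26). Dlx2 went from the floor to 1.14 ± 0.13 CPM in CD1530 and 1.32 ± 0.28 CPM in AGN, at least 7.66-fold and 8.85-fold. The methods name a retinoid ligand also for the PM stage, without saying which was used for these libraries.

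From D6.25 to D6.75, 4 genes were called as higher and 3 as lower in CD1530 (45.9% of all genes, 25.8% higher and 20.1% lower), and 5 and 3 in AGN (43.7%, 24.9% and 18.8%). Dlx1 rose by 3.99 ± 0.33 in AGN (1.87e-13) and by 1.77 ± 0.34 in CD1530 (3.64e-05), and Dlx2 by 1.89 ± 0.17 in AGN (2.25e-12). Alx1 rose by 2.85 ± 0.50 in AGN (1.16e-05) to its highest level of the series. The AGN D6.25 libraries held 1, 3 and 9 counts of Alx1 and 3, 2 and 5 counts of Dlx1, near the floor. The sizes of these AGN steps are thus uncertain. Leaving out a library gave 2.37 to 3.93 for Alx1 and 3.75 to 4.39 for Dlx1. Msx1 fell by 1.71 ± 0.18 in AGN (1.24e-10) and by 1.44 ± 0.17 in CD1530 (3.15e-09).

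From D6.75 to D7.5, 1 gene was called as higher and 2 as lower in CD1530 (34.2% of all genes, 18.7% higher and 15.5% lower), and 3 and 3 in AGN (30.3%, 14.2% and 16.0%). Dlx5 left the floor in CD1530, where it was at least 5.35-fold higher at D7.5, and rose by 2.99 ± 0.59 in AGN (adjusted p = 1.13e-04). The AGN D6.75 libraries held 1, 6 and 0 counts of Dlx5, a mean under the floor of 3 counts, and without their replicate 2 the AGN step was 4.96, so its size is uncertain. Dlx1 rose by 1.14 ± 0.17 in AGN (6.10e-07) while Alx1 fell by 1.12 ± 0.40 (0.0298), and the Alx1 call was lost without AGN D6.75 replicate 1, AGN D7.5 replicate 1 or AGN D7.5 replicate 3 and by DESeq2.

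From D7.5 to D8.5, 3 genes were called as higher and 1 as lower in CD1530 (36.5% of all genes, 18.8% higher and 17.7% lower), and 4 and 2 in AGN (42.1%, 21.4% and 20.6%). Dlx5 rose in both, by 2.57 ± 0.28 in CD1530 (1.65e-09) and by 3.82 ± 0.21 in AGN (5.00e-17). Msx1 rose in CD1530 by 1.43 ± 0.20 (1.91e-07), the only rise of an Msx gene with a called log2 fold change of at least 1, before it fell again at D10. Alx1 fell in AGN by 1.34 ± 0.53 (0.0387), on 0 to 21 counts, and 4 of the 6 fits that left out a library of these groups did not call it.

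From D8.5 to D10 the conditions took different steps. In AGN 5 genes were called as higher and 1 as lower (59.4% of all genes, 29.9% higher and 29.5% lower). There, Alx4 rose by 2.52 ± 0.11 (adjusted p = 4.54e-23), Dlx5 by 2.12 ± 0.12 (5.31e-17), Prrx1 by 1.16 ± 0.06 (2.15e-20) and Prrx2 by 1.07 ± 0.08 (3.49e-15), and Msx1 fell by 1.29 ± 0.23 (7.38e-06). The Dlx6 step was 3.87 ± 0.39, again a description. In CD1530 2 were called as higher and 2 as lower (57.3%, 27.4% and 29.9%), and the only one with a log2 fold change beyond 1 was Msx1, which fell by 1.26 ± 0.20 (1.08e-06). Alx4 and Prrx2 rose there by 0.35 ± 0.14 and 0.37 ± 0.09, and Msx2 fell by 0.73 ± 0.24.

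**Figure D3:**
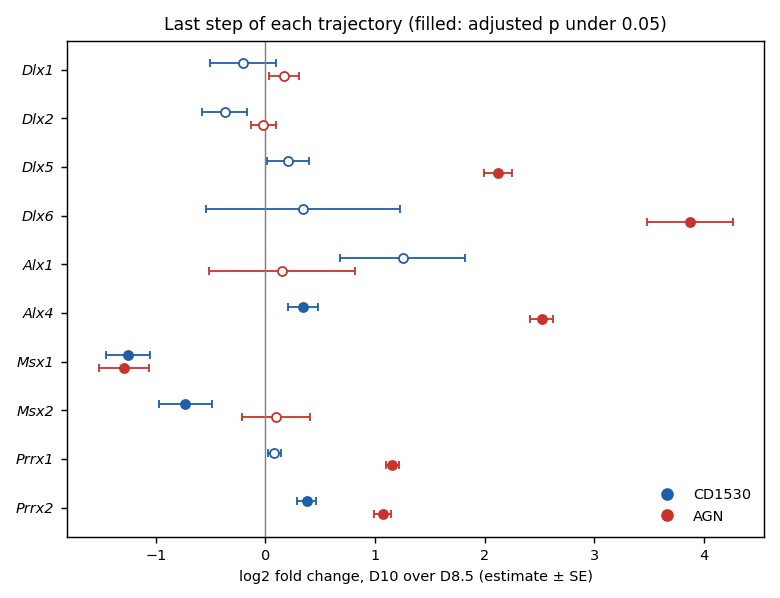
Log2 fold change of D10 over D8.5 within each condition (estimate ± SE, CD1530 blue, AGN red, filled where the adjusted p was under 0.05) for the 10 genes. The AGN points of Dlx5, Dlx6, Alx4, Prrx1 and Prrx2 lie to the right of the CD1530 points, between 1.07 and 3.87, and the Msx1 points of both conditions lie together at −1.26 and −1.29.

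The difference of this last step between conditions was tested as an interaction. Of the 10 genes 5 were called, each with a smaller step in CD1530 (26.8% of all genes called, 14.1% in this direction and 12.7% in the other): Alx4 (−2.18 ± 0.18, adjusted p = 6.12e-13), Prrx1 (−1.08 ± 0.08, 2.57e-13), Dlx5 (−1.91 ± 0.23, 5.09e-08), Prrx2 (−0.69 ± 0.12, 1.68e-05) and Dlx6 (−3.53 ± 1.13). The Dlx6 value involves AGN at D10 and is a description, and without CD1530 D8.5 replicate 2 it was −2.64 and not called (adjusted p = 0.284). For Dlx1 and Dlx2, whose AGN levels were already high at D8.5, it was −0.38 ± 0.33 (0.440) and −0.35 ± 0.24 (0.299). For Msx1 it was 0.03 ± 0.30 (0.969).

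Ordered over the 11 groups, AGN at D10 held the highest mean of Dlx1, Dlx5, Dlx6, Alx4, Prrx1 and Prrx2. For Dlx5, Dlx6, Alx4, Prrx1 and Prrx2 its libraries did not overlap with those of the next group. For Dlx1 they overlapped with AGN at D8.5, and Dlx2 was highest in AGN at D8.5 (9.78 ± 0.16 CPM), which overlapped with AGN at D10 (9.62 ± 0.56). Below them Dlx1 and Dlx2 had the same order of groups: AGN at D7.5, AGN at D6.75, then the CD1530 groups from D6.75 on, whose libraries overlapped with their neighbours in the order.

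Prrx1 varied least, 3.05-fold between its highest and lowest group mean, and between AGN at D10 and PM (52.9 ± 2.9 CPM) the 9 other groups, from CD1530 at D6.75 (89.8 ± 5.8) down to CD1530 at D8.5 (67.5 ± 3.7), each overlapped with their neighbours. Alx4 was between 3.22 and 5.76 CPM in the mean of every group but AGN at D10. Alx1 was highest in AGN at D6.75 (1.50 ± 0.49 CPM), and the other 10 groups overlapped with their neighbours at 0.204 to 0.721 CPM. Msx1 was highest in PM, and Msx2 in PM (3.36 ± 0.16 CPM), with overlap to CD1530 at D6.25 (3.28 ± 0.17), which became the higher of these when scaled by library size only.

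Per kilobase of exon, so that genes can be set against each other, AGN at D10 held Dlx5 at 26.0 ± 0.38, Prrx2 at 15.4 ± 1.16, Prrx1 at 14.6 ± 0.60, Alx4 at 4.32 ± 0.17, Dlx2 at 3.37 ± 0.195, Dlx1 at 1.81 ± 0.09 and Dlx6 at 1.37 ± 0.325 CPM per kb. Dlx5 was the leading member there on this scale, which divides by all annotated exons and not by the length of the expressed transcript. By CPM, Prrx1 led in AGN at D10, with 161 ± 6.7 against 58.8 ± 0.86 for Dlx5. In CD1530 at D10, Prrx2 at 8.03 ± 0.27 and Prrx1 at 6.46 ± 0.22 CPM per kb led, and Dlx5 was at 2.22 ± 0.24. In PM, Prrx1 (4.78 ± 0.27) was followed by Msx1 (2.18 ± 0.34) and Msx2 (1.02 ± 0.05).

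The likeness of the members' patterns was described with Pearson's r of log2(CPM + 0.5) over the 11 group means, and it is given with no test because all genes share these libraries and the time axis. The highest values were between Dlx6 and Alx4 (0.97), between the neighbours Dlx1 and Dlx2 (0.94) and between Alx4 and Prrx1 (0.89). Dlx6 is in the table only through its level in AGN at D10, so every r with Dlx6 describes that peak and supports nothing. The neighbours Dlx5 and Dlx6 were at 0.81, Msx1 and Msx2 at 0.76, Prrx1 and Prrx2 at 0.66 and Alx1 and Alx4 at 0.02. Msx2 ran against the Dlx genes, with −0.92 to Dlx1, −0.86 to Dlx2, −0.81 to Dlx5 and −0.62 to Dlx6.

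**Figure D4:**
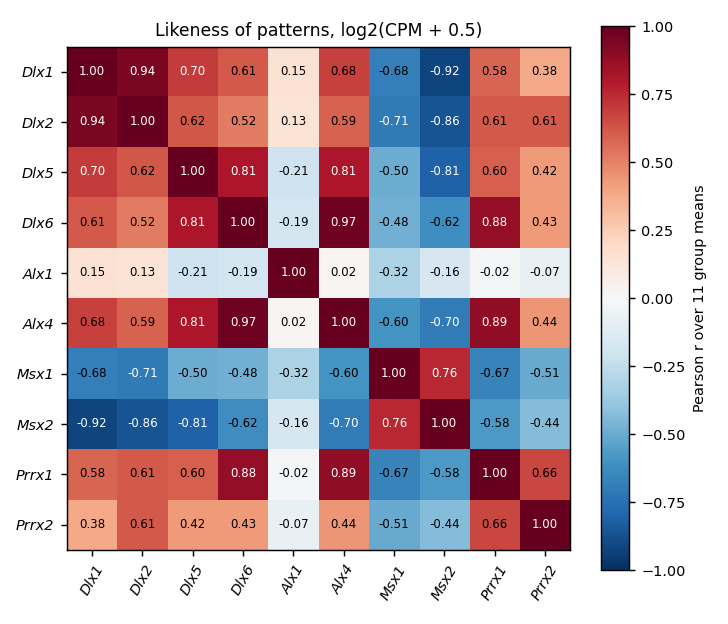
Pearson's r between the 10 genes over 11 group means of log2(CPM + 0.5), from −1 (blue) to 1 (red), with the value in each cell. The Dlx, Alx4 and Prrx1 cells are red (0.52 to 0.97), the Msx rows are blue against them (−0.48 to −0.92), and the Alx1 row is pale (−0.32 to 0.15).

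Among 14422 genes whose highest group mean was at least 1 CPM, the pattern most like that of Dlx5 belonged to Fxyd7 (0.99), followed by Matn4 (0.98), a cartilage matrix gene, and Adamts20 (0.98). For Dlx6 these were Scrg1 (0.99), Itih5l-ps (0.99) and Cnmd (0.98), which encodes chondromodulin, and for Alx4 they were Nim1k (0.98), Dlx6 (0.97) and Cnmd (0.97). All matches with Dlx6 carry the limit given above for its r. Dlx1 was most like Jph4 (0.97), Dusp7 (0.96) and Tceal3 (0.95), and Dlx2 most like Hoxa13, Cbln4 and Fbln2 (0.95 each). Prrx1 was most like Ndrg2 (0.98), Hapln3 and H2-Q7 (0.96 each), and Prrx2 most like Arl2bp, Tmem185a and Gramd3 (0.97). Msx1 was most like Cstf2, Snhg15 and Fam133b (0.95 to 0.96), Msx2 most like Abhd17b, Zbtb10 and Mettl22 (0.97 to 0.99), and Alx1, whose counts are low, most like B3gat1 (0.86), Ift122 (0.84) and Mitd1 (0.83). With a pseudocount of 2 in place of 0.5, 19 of these 30 genes were named again, and with Spearman's correlation 3 were.

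Of the relatives outside the 10 genes, Dlx3 and Shox2 are described. Both were higher in CD1530 at D10, beside 22.7% of all genes. Dlx3, a Dlx gene of skin and placenta, was at 2.88, 2.92 and 4.10 CPM in CD1530 and at 1.19, 0.783 and 0.891 CPM in AGN (log2 1.78 ± 0.26, adjusted p = 2.70e-07), and it was already higher at D7.5 (1.04 ± 0.31, 0.00929) and D8.5 (2.58 ± 0.25, 2.55e-11). Shox2, a regulator of proximal limb bones, had 2.42, 1.82 and 2.36 CPM against 1.81, 1.20 and 1.07 CPM (0.70 ± 0.28, 0.0364). Dlx3 thus lay on the opposite side from Dlx1, Dlx2, Dlx5 and Dlx6 at D10.

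**Figure D5:**
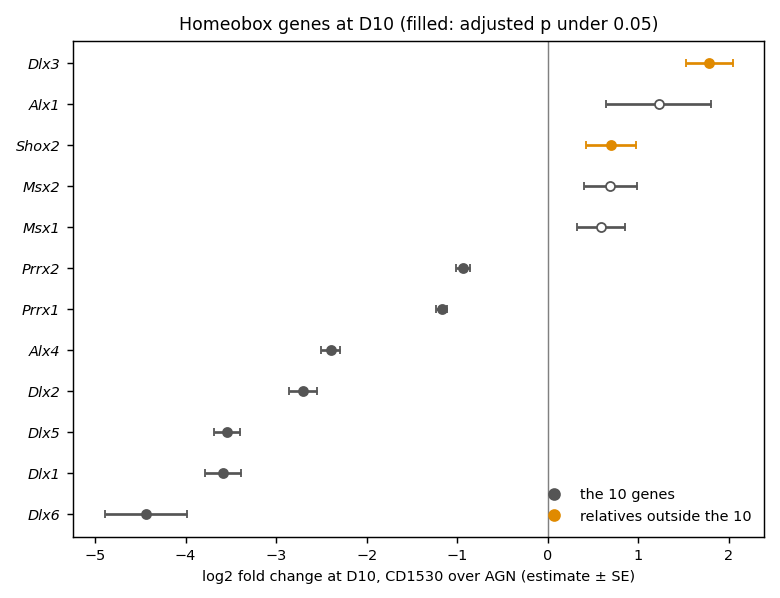
Log2 fold change of CD1530 over AGN at D10 (estimate ± SE, filled where the adjusted p was under 0.05) for the 10 genes (grey) and 2 relatives (orange), sorted by value. Dlx3 and Shox2 lie right of 0 at 1.78 and 0.70, and the 7 called members lie left of 0 between −0.94 and −4.44.

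Genes of BMP signalling, which is upstream of Msx and several Dlx genes in embryos, were listed with their antagonists and targets. Of 20, 6 were higher and 9 lower in CD1530 at D10, and their median log2 fold change was −0.28 beside −0.02 for all genes. All counts of other gene lists at D10 stand beside 22.7% of all genes called as higher and 24.0% as lower in CD1530. The largest called differences were those of the ligand Gdf6 (4.33 ± 0.42), the ligand Bmp5 (−2.23 ± 0.09), the signal transducer Smad9 (−2.20 ± 0.18) and Id1 (−2.12 ± 0.08), a direct target of BMP signalling. Against PM at D10, 16 of the 20 were higher and 3 lower in CD1530 (43.3% and 39.9% of all genes), and 15 higher and 4 lower in AGN (41.6% and 40.4%).

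Of 15 skeletal partners and targets of these factors, 5 were higher and 9 lower in CD1530 at D10, and their median was −1.05. The lower ones included the cartilage matrix genes Acan (−5.53 ± 0.09), Matn4 (−4.26 ± 0.10) and Col2a1 (−4.10 ± 0.05) and the osteoblast factor Sp7 (−3.25 ± 0.26). Against PM, 10 were higher and 1 lower in CD1530 (43.3% and 39.9% of all genes), and 10 higher and 3 lower in AGN (41.6% and 40.4%). Of 8 genes of limb and lateral mesenchyme, 5 were higher and 1 lower in CD1530 at D10, among them Hand2 (2.60 ± 0.38), Tbx2 (1.99 ± 0.07) and Tbx3 (1.65 ± 0.08), with Hand1 at 0.978 ± 0.265 CPM in CD1530 and at the floor in AGN. Of 7 tendon genes, 2 were higher and 3 lower, with Tnmd at −1.02 ± 0.19, Scx at −0.51 ± 0.04, Egr1 at 0.65 ± 0.05 and Tnc at 0.49 ± 0.11, and 0 of the 7 were at the floor in either condition.

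Markers of other cell types in which these homeobox genes are used were counted beside them. Of 7 neural crest genes 4 were higher and 1 lower in CD1530 at D10. Their summed level was 405 to 408 CPM in CD1530 and 167 to 172 in AGN. Ngfr alone held 236 ± 1.7 and 66.0 ± 1.9 CPM of it, and Sox10 was at 1.77 ± 0.23 and 0.805 ± 0.332 CPM. The lower gene was Tfap2b (−1.47 ± 0.23 on the log2 scale), while Tfap2a was higher (1.45 ± 0.26). Of 4 forebrain interneuron genes 3 were higher and 1, Gad1, was lower in CD1530 (−0.67 ± 0.27 on the log2 scale). Their sum was 6.38 to 7.68 CPM in CD1530 and 2.17 to 2.61 in AGN.

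Of 8 surface ectoderm genes 5 were higher and 3 lower in CD1530, with sums of 287 to 295 CPM in CD1530 and 365 to 373 in AGN, and with Trp63 (−2.97 ± 0.42) and Cdh1 (−1.14 ± 0.04) lower and Tfap2c (1.99 ± 0.09) and Krt15 (1.53 ± 0.29) higher. Of 6 endothelial genes 1 was higher and 3 were lower, with sums of 181 to 190 and 262 to 271 CPM. Of 8 paraxial mesoderm genes 3 were higher and 2 lower, and their sum was 163 to 175 CPM in PM, 18.1 to 20.6 in CD1530 and 38.5 to 39.4 in AGN at D10. Of these, T stood at 27.1 ± 0.54 CPM with AGN and 0.503 ± 0.140 with CD1530, Cdx1 at 8.76 ± 0.94 CPM in CD1530 and at the floor in AGN, and Msgn1 at the floor in both. The part of other cells in the differences of the 10 homeobox genes was not tested.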

How the data were processed

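Total RNA of 33 whole cultures was sequenced by the authors as paired ends, aligned to GRCm38 with STAR and counted per gene with featureCounts. The deposited values are raw counts for 17120 genes. The annotation release, strand setting and treatment of multi-mapping reads are not given in the sources used here. The lowest value of a gene's third-highest CPM was 0.611, so weaker genes had been removed before deposit.

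From these counts, CPM were computed with TMM factors and a quasi-likelihood model of all 33 libraries in 11 groups was fitted in edgeR 4.0.16 (R 4.3.3), with the robust option and filterByExpr, which removed 0 genes. Contrasts were tested one by one and adjusted by the Benjamini-Hochberg method over 17120 genes. DESeq2 1.42.0 was an alternative. The scripts were tested on simulated data. Figures used matplotlib 3.10.9.

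The 10 genes and all lists were chosen with earlier results of these data known. Named were all 10 genes in each condition contrast and at D10 against PM, in steps those called and at least 1 log2 unit apart (smaller called steps are named as extras), the relatives, at most 4 called genes of each other list at D10, and the 3 genes most like each member in pattern. Genes marked with a symbol of Gm or Rik type were left out of that search. Dlx4, Msx3, Prrxl1, Drgx and the antisense genes of Dlx1 and Dlx6 were not analysed here, and some items are not reported here.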

Additional observations from a re-analysis of the deposited data

Results flagged for a closer look

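The step from D8.5 to D10 differed between the conditions, by a test of the interaction in edgeR, for 5 of the 10 genes. The difference of the log2 step, CD1530 minus AGN, was −1.91 for Dlx5 (adjusted p = 5.09e-08), −3.53 for Dlx6, −2.18 for Alx4 (6.12e-13), −1.08 for Prrx1 (2.57e-13) and −0.69 for Prrx2 (1.68e-05). The Dlx6 difference was −2.64 (0.284) without CD1530 D8.5 replicate 2. Dlx6 is in the table only through AGN at D10, where it had to be high, so its value is a description. For Dlx5, Dlx6 and Prrx1 the CD1530 step was not called (0.21 ± 0.19, 0.34 ± 0.89 and 0.08 ± 0.06), and for Alx4 and Prrx2 it was called but smaller than in AGN.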

How the results depend on the processing

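Single genes were checked between conditions, at D10 against PM, in the last-step interaction and in called steps of at least 1 log2 unit. Smaller called steps and the test over 5 time points were not checked gene by gene. Of 68 results called among those checked, 955 of 979 alternative values kept direction and call, 24 lost the call and 0 reversed. Of 37 not called, 505 of 533 values stayed so in the same direction, 7 became called and 21 reversed, all of the latter uncalled and among weakly counted genes or differences near 0. The cause was not tested.

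A required absolute log2 fold change of at least 1 left, in CD1530, 2 genes called at D6.25 against PM, 2 at the D6.75 step, 1 at D7.5, 2 at D8.5 and 1 at D10. In AGN it left 2 at D6.25 against PM, 4 at the D6.75 step, 3 at the D7.5 step and 2 at the D8.5 step. With only the compared groups in the fit, 1 gene was called in CD1530 at D7.5 against D6.75. DESeq2 called 5 in CD1530 at D10 against D8.5. Shares of all genes called under these settings, or with 1 library left out, are not given here. Such counts only describe how the main counts of members moved. Of the 30 genes most similar in pattern, 19 were shared with a pseudocount of 2 and 3 with Spearman's correlation.

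Leaving out 1 library gave 2 to 4 calls between conditions at D7.5 (2 without AGN replicate 2 or CD1530 replicate 1) and 2 to 5 calls in CD1530 at D10 against D8.5 (2 without D8.5 replicate 3). Uncalled differences that changed sign ranged at D6.25 from −1.17 to 0.0862 for Dlx5, −3.13 to 1.80 for Dlx6, −0.786 to 1.11 for Alx1, −0.174 to 0.00032 for Msx1, −0.0211 to 0.173 for Msx2, −0.0470 to 0.0103 for Prrx1 and −0.0647 to 0.0707 for Prrx2. They ranged from −2.24 to 0.215 for Dlx5 at D6.75, −0.22 to 0.588 for Dlx6 at D7.5, −0.293 to 1.16 for Alx1 at D8.5 and −0.17 to 0.15 for the Msx1 interaction of the last step.

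With the replicate number as a block, 7 genes were called at D10 and no count changed in any of the 19 comparisons. Deviations of same-numbered libraries from their group means had correlations of −0.129 to 0.199. With 3 libraries per group, these values cannot decide whether the numbers pair the samples. Scaling by library size only moved the median of all genes in AGN at D10 against PM to −0.15. Members with few counts, Dlx6 and Alx1 above all, are limited by depth.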
